A study of Mus musculus with 6 samples.

Results

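The 10 genes described here encode cohesin subunits and the cohesin protector Sgo2a. The meiotic subunits are Rec8, Rad21l, Smc1b and Stag3. The mitotic and shared subunits are Rad21, Smc1a, Smc3, Stag1 and Stag2. The 10 genes were listed by symbol, and the list was drawn up with earlier results of these data known. All 10 were found among the 48709 genes of the deposited table and among the 20167 genes that had enough counts to be tested. RNA was measured in 13.5 dpc (days post coitum) ovaries of CD1 mouse embryos, in 3 control and 3 APAP+IBU libraries. Wild-type dams received paracetamol (APAP, 30 mg/kg/day) together with ibuprofen (IBU, 15 mg/kg/day) by gavage from 10.5 to 13.5 dpc, and control dams received ethanol, the solvent, over the same days. Each library came from its own pool of gonads, and each pool joined embryos from a pair of dams, so the spread between libraries is a spread between pools. Ovaries are a mixture of germ cells and somatic cells, and in such bulk RNA fewer cells of a type and less RNA per cell cannot be told apart.

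Cohesin is a ring that holds sister chromatids together from replication until anaphase. A pair of SMC proteins forms the long arms, a kleisin closes the ring, and a STAG protein (also called SA) sits on the kleisin. In mitotic cells the kleisin is RAD21, which separase cuts to release the sisters. Germ cells entering meiosis build rings with other parts: REC8 or RAD21L as kleisin, SMC1B in place of SMC1A, and STAG3 in place of STAG1 and STAG2, while SMC3 is shared. These meiotic rings organise the chromosome axis on which homologues pair and recombine, and they hold oocyte chromosomes together until ovulation. Shugoshin 2, encoded by Sgo2a, protects centromeric REC8 from separase at the first meiotic division. In the mouse ovary germ cells begin to enter meiosis at about the stage sampled here.

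The start sites of the 4 meiotic genes and of Stag1, the mitotic counterpart of Stag3, are shown. This is because germ-line genes of this kind are known to be held silent in somatic cells through E2F6, a repressor of the E2F family. Each sequence runs 5′ to 3′ on the strand of the gene, from 250 bases before to 30 bases after the RefSeq start site (GRCm38.p6), and capitals mark the E2F core TCCCGC or the E-box CACGTG. Both strands were searched, and the E-box reads the same on both.
Rec8 (chr14:55617916-55618195, plus strand): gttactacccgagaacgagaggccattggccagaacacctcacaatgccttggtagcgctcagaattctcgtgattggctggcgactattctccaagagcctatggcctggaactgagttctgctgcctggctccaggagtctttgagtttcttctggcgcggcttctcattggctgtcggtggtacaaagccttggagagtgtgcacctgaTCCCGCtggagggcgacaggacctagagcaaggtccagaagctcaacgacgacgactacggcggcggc
Rad21l (chr2:151668504-151668783, minus strand): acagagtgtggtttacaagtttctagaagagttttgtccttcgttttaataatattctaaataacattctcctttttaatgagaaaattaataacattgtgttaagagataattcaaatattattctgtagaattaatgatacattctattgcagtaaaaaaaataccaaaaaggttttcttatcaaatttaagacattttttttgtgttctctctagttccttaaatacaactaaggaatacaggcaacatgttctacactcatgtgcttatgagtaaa
Smc1b (chr15:85131928-85132207, minus strand): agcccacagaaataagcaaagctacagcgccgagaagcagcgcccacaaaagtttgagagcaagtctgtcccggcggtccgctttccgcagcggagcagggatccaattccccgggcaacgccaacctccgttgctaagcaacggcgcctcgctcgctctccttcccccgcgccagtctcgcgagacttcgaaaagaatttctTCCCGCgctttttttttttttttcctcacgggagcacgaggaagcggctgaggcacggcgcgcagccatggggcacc
Stag3 (chr5:138280259-138280538, plus strand): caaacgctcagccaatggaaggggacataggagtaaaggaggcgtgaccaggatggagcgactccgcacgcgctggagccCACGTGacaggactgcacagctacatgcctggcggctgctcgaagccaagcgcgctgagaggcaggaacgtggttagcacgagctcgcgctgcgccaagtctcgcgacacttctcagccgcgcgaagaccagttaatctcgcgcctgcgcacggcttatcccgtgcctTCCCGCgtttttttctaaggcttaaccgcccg
Stag1 (chr9:100643198-100643477, plus strand): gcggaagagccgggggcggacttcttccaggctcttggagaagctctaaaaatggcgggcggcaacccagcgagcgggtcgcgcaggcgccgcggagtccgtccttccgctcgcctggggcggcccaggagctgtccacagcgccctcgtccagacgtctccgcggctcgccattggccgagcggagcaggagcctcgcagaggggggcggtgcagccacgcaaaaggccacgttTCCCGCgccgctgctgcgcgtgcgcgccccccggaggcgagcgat
The E2F core begins at -38 relative to the RefSeq start site in Rec8, at -47 in Smc1b, at -2 in Stag3 and at -15 in Stag1. In each of these genes the RefSeq start site lies inside the gene span printed below. For Stag1 it lies at 100643448, far from the beginning of the span at 100597798, and letters around that beginning were not read. Stag3 also holds an E-box at -170. RefSeq windows were matched for 8 of the 10 genes, and 6 of these 8 held the E2F core, among them Smc3 and Sgo2a, against 18.8% of all 32851 windows of this length. The 8 genes had 9 windows, since Sgo2a has more than 1 start site. Windows with the core had a GC content of 55% (Sgo2a) to 72.5% (Stag1), against a median of 52.5% over all windows. The core itself is rich in G and C, and its share among windows of like GC content was not tested. The E-box was found in 1 of the 8 genes and in 6.79% of all windows. Another motif, CNCCTCAG, known as the motif bound by the meiotic inducer STRA8, was in 0 of the 8 and in 7.29% of all windows. The windows of Rad21l (GC content 26.4%) and Smc1a (57.5%) held no match. The annotated Rad21l transcript begins at its ATG and ends at a stop codon, so its window lies before the coding start, and letters around any start site further upstream were not read. A match is a description of letters, not a bound site.

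Several properties of the libraries bear on the values. Total counts ran from 37811968 to 48954631. The 5 germ cell markers found in the table were present in every library, with a summed level of 781 to 1058 CPM (reads scaled to a common library total, with TMM factors) in controls and 916 to 1138 CPM in exposed ovaries. The 6 supporting cell markers summed to 351 to 611 CPM in controls and 467 to 484 CPM in exposed ovaries. The 5 testis somatic markers summed to 9.67 to 22.0 CPM in controls and 8.80 to 10.7 CPM in exposed ovaries. Of these, Cyp17a1 was lower in every exposed library than in any control, while Sox9, Amh, Dhh and Insl3 overlapped. The 10 liver markers were highest in replicate 3 of both groups, where they summed to 1922 CPM (control) and 3111 CPM (exposed), and ranged from 185 to 537 CPM elsewhere. The 8 spermatid markers, genes of sperm formation that an embryonic ovary is not known to use, were above 0 in every library and summed to 33.4 to 127 CPM in controls against 1.48 to 5.26 CPM in exposed ovaries. The 8 erythroid markers summed to 5854 to 13650 CPM in controls and 2488 to 8641 CPM in exposed ovaries. The summed level of the 5 spermatocyte markers overlapped between the groups, with 109 to 187 CPM against 105 to 201 CPM, but most of it was Tex101. Tex101 and Piwil1 overlapped between the groups, whereas Ldhc, Pgk2 and Ccna1 were lower in every exposed library than in any control. Ldhc was at 20.3, 8.62 and 10.5 CPM in controls and at 3.61, 2.03 and 2.34 CPM in exposed ovaries.

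The libraries also differed in how they held long against short transcripts. The 3648 tested genes with transcripts over 5 kb had a median deviation from their own mean of -0.25 and -0.15 on the log2 scale in control replicates 1 and 2, and of 0.16 in control replicate 3. In APAP+IBU replicates 1, 2 and 3 the same median was 0.14, 0.14 and -0.03. Genes under 1 kb deviated in the opposite direction in each library, and genes rich in G and C were high in the libraries in which short transcripts were high. Among the 10 cohesin genes the annotated transcripts run from 1659 bases (Rad21l) to 6186 bases (Stag1), and the GC content from 38.1% (Stag2) to 56.7% (Rec8). Each difference is therefore given as measured and after a correction that takes the trend with length and GC content out of each library, and also for replicates 1 and 2 alone, without the libraries rich in liver RNA.

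None of the 10 genes passed the test between exposed and control ovaries across all 6 libraries, and none of the 20167 tested genes did, which is 0% (edgeR quasi-likelihood test, Benjamini-Hochberg adjusted p under 0.05). At an unadjusted p under 0.05, Rad21l was higher and no member was lower, against 3% of all tested genes higher and 3.21% lower. DESeq2 called no member either, with Rad21l (unadjusted p = 0.00631, adjusted p = 0.325) and Smc1b (unadjusted p = 0.0344, adjusted p = 0.662) below the unadjusted threshold, although it called 235 genes in all, or 0.849% of those it tested. No member had its 3 exposed libraries all above or all below the 3 controls, while 4.78% of tested genes lay wholly above and 5.92% wholly below. The log2 fold change was positive for 8 of the 10 genes, against 49.4% of all tested genes, and after the correction it was positive for 4 of the 10, against 47.9%. At an unadjusted p under 0.05 the corrected fit had 1 member higher, Rad21l, and 1 lower, Smc1a, against 4.03% and 5.55% of all tested genes.

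With replicates 1 and 2 alone, 7 of the 10 genes were called higher and 1, Rec8, lower in exposed ovaries, against 14.2% and 12.9% of the genes tested there (edgeR quasi-likelihood test, adjusted p under 0.05). In these 4 libraries the length trend ran with the groups. The median log2 fold change was 0.34 for transcripts over 5 kb and -0.40 for those under 1 kb. Without the correction, exposure and this trend cannot be told apart there. When the same 4 libraries were corrected for length and GC content, 1 gene, Rad21l, was called higher and none lower, against 5.24% and 7.5% of all tested genes. Without control replicate 3 alone, Stag2 and Sgo2a were called higher and Rec8 lower, against 2.89% and 2.26%. The calls therefore differed between these sets of libraries. The 4 meiotic subunits had a median log2 fold change of 0.47 over all 6 libraries and the 5 mitotic and shared subunits one of 0.16, beside -0.0047 over all tested genes. After the correction the same medians were 0.31, -0.077 and -0.014.

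**Figure D1:**
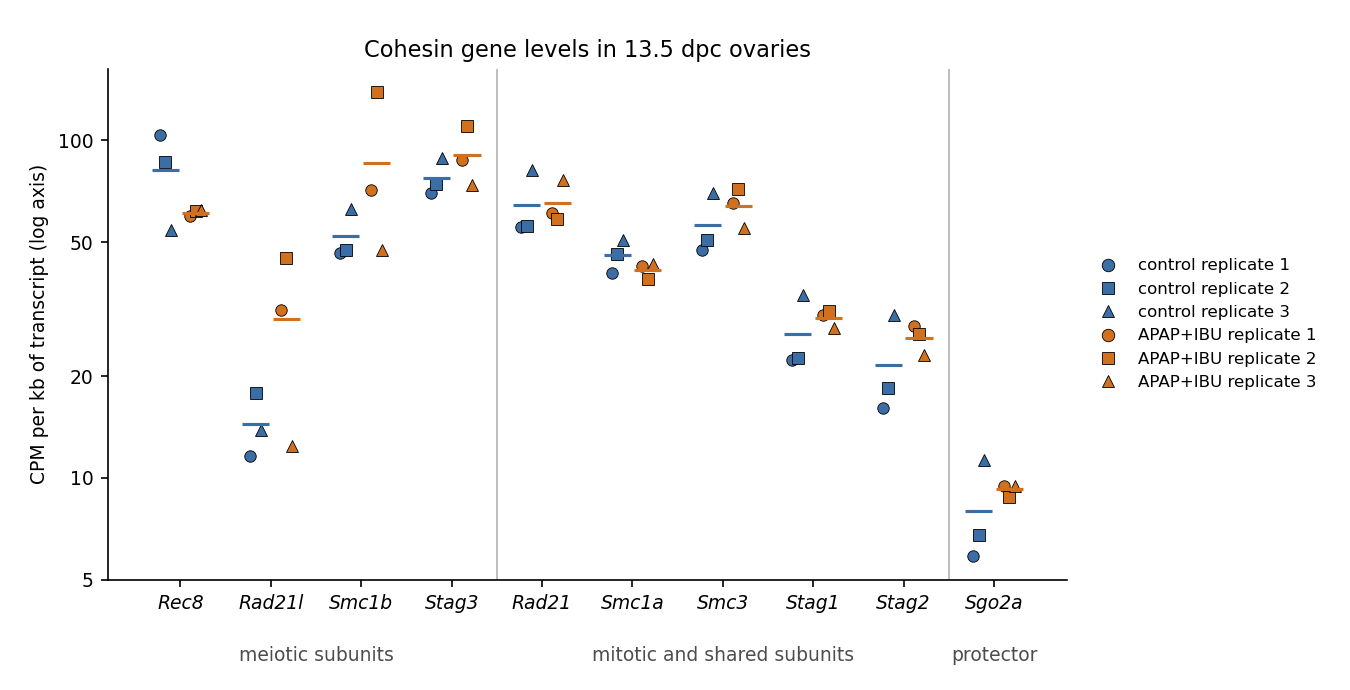
Level of each cohesin gene in each library, as CPM per kb of annotated transcript on a log axis, with controls in blue, APAP+IBU in orange, one symbol for each replicate number and a bar at the mean of 3 libraries. Rec8 libraries of the exposed group sit close together inside the control range, and the Rad21l and Smc1b values of APAP+IBU replicates 1 and 2 sit above all controls while replicate 3 does not.

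Per kb of transcript, Rec8 and Stag3 had the highest means of the 10 genes in control ovaries, at 81.5 ± 25.3 and 77.5 ± 9.94 CPM per kb (SD, n = 3). Rad21 followed at 64.3 ± 15.1, Smc3 at 56.0 ± 12.2, Smc1b at 52.1 ± 9.09 and Smc1a at 45.9 ± 5.20 CPM per kb. Stag1 (26.7 ± 7.11), Stag2 (21.7 ± 7.68), Rad21l (14.5 ± 3.19) and Sgo2a (8.01 ± 2.92 CPM per kb) were the lowest. In this order only Smc1a and Stag1, and Rad21l and Sgo2a, were neighbours whose control ranges did not overlap. Smc1b stood above Smc1a, and Stag1 above Stag2, in 6 of 6 libraries, although the control ranges overlapped within both pairs. Rec8 stood above Stag3 in 2 of 6 libraries, and these were control replicates 1 and 2. The order depends on the length used: with all annotated exons joined, Stag3 came first, Rec8 second, Stag2 rose to rank 7 and Stag1 moved to rank 9. The level of Rad21l per kb rests on its coding stretch alone, and a length with untranslated ends was not tried.

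Rec8 (ENSMUSG00000002324, chromosome 14:55618037-55625395 on GRCm38, plus strand) encodes the kleisin that carries cohesion through the meiotic divisions. It was measured at 227, 188 and 118 CPM in control replicates 1, 2 and 3, and at 130, 135 and 136 CPM in the corresponding exposed replicates. The 3 exposed libraries nearly coincided and lay inside the control range, in which replicate 3 was the lowest of all 6 libraries. The means were 178 ± 55.2 CPM and 134 ± 3.04 CPM (SD, n = 3), and the log2 fold change was -0.41 with a standard error of 0.22 (95% interval -0.92 to 0.093, edgeR adjusted p = 0.692). The exact permutation test over the 6 libraries gave p = 0.4 (two-sided, smallest possible 0.1). Rec8 has the highest GC content of the 10 genes and a short transcript of 2184 bases. After the correction its levels were 188, 166 and 140 CPM in controls and 146, 147 and 128 CPM in exposed ovaries, with a log2 fold change of -0.23 (adjusted p = 0.537). For Rec8 in replicates 1 and 2 alone the log2 fold change was -0.63 (edgeR adjusted p = 0.00945), and with the correction it was -0.26 (adjusted p = 0.106). Over 5 libraries the Rec8 value was -0.20 without control replicate 1 (adjusted p = 0.999) and -0.64 without control replicate 3 (edgeR adjusted p = 0.0405).

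Rad21l (ENSMUSG00000074704, chromosome 2:151645404-151668533, minus strand), a kleisin of early meiotic prophase, had the largest fold change of the 10 genes. Control replicates 1, 2 and 3 gave 19.3, 29.7 and 23.0 CPM, and the exposed replicates 52.2, 74.4 and 20.7 CPM. Exposed replicates 1 and 2 were above every control, and exposed replicate 3 was below 2 of the 3 controls. The means were 24.0 ± 5.29 and 49.1 ± 27.0 CPM (SD, n = 3), with a log2 fold change of 1.03 and a standard error of 0.41 (95% interval 0.090 to 1.98). Its unadjusted p was 0.0355 and its adjusted p 0.692 (edgeR quasi-likelihood test), and the exact two-sided permutation test gave p = 0.3. After the correction the log2 fold change of Rad21l was 0.86 (edgeR unadjusted p = 0.0475, adjusted p = 0.521). The correction used its annotated transcript of 1659 bases, which begins at the ATG and ends at a stop codon. A correction by the length and GC content of a transcript with untranslated ends was not tested. Replicates 1 and 2 alone gave 1.39 with a standard error of 0.23 (edgeR adjusted p = 0.00851), and with the correction 1.11 with a standard error of 0.21 (adjusted p = 0.0162). Without APAP+IBU replicate 2 the log2 fold change of Rad21l over the 5 other libraries was 0.59 (adjusted p = 0.97).

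Rad21 (ENSMUSG00000022314, chromosome 15:51962240-51991747, minus strand), the kleisin of mitotic cohesin, was measured at 219, 220 and 323 CPM in controls and at 241, 231 and 302 CPM in exposed ovaries. Replicate 3 was the highest library in both groups, and the groups overlapped. The log2 fold change of Rad21 was 0.019 with a standard error of 0.19 (95% interval -0.42 to 0.46, edgeR adjusted p = 0.976), and it was -0.077 after the correction. Replicates 1 and 2 alone gave 0.12 for Rad21 (adjusted p = 0.329), and -0.15 with the correction (adjusted p = 0.311). Leaving out 1 library moved it between -0.13, without APAP+IBU replicate 3, and 0.23, without control replicate 3. Rad21 and Smc1a were the members called in none of the fits named above.

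Smc1b (ENSMUSG00000022432, chromosome 15:85064689-85131964, minus strand) encodes the SMC1 protein of meiotic cells. Its control libraries gave 187, 192 and 253 CPM, and its exposed libraries 289, 563 and 192 CPM. APAP+IBU replicate 2 stood far above the other 5 libraries, and exposed replicate 3 was level with control replicate 2. The means were 211 ± 36.8 and 348 ± 192 CPM (SD, n = 3), and the log2 fold change was 0.72 with a standard error of 0.36 (95% interval -0.10 to 1.54, edgeR adjusted p = 0.692, exact two-sided permutation p = 0.3). Without APAP+IBU replicate 2 the log2 fold change of Smc1b was 0.18 (adjusted p = 0.97). After the correction over all 6 libraries it was 0.44, with levels of 244, 221 and 225 CPM in controls and 240, 502 and 193 CPM in exposed ovaries, so that only APAP+IBU replicate 2 lay above the controls. It was 1.18 in replicates 1 and 2 alone (edgeR adjusted p = 0.0183), and with the correction 0.67 (adjusted p = 0.137).

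Smc1a (ENSMUSG00000041133, chromosome X:152016428-152062694, plus strand) encodes the SMC1 protein of mitotic cohesin. It ran at 190, 217 and 239 CPM in controls and at 200, 182 and 202 CPM in exposed ovaries. The 3 exposed values lay in or below the lower part of the control range. Its log2 fold change was -0.15 with a standard error of 0.13 (95% interval -0.44 to 0.15, edgeR adjusted p = 0.731). After the correction the Smc1a libraries no longer overlapped, with 216, 230 and 218 CPM in controls and 188, 176 and 201 CPM in exposed ovaries. The corrected log2 fold change was -0.23 with a standard error of 0.088 (unadjusted p = 0.0292, edgeR adjusted p = 0.498), and the exact two-sided permutation test of the corrected levels gave its smallest possible p of 0.1. Among all tested genes 8.03% lay wholly below the controls after the correction and 6.76% wholly above, and of the members Smc1a was the only one in either class. For replicates 1 and 2 alone the log2 fold change of Smc1a was -0.071 (edgeR adjusted p = 0.657), and with the correction it was -0.29 (unadjusted p = 0.0134, adjusted p = 0.0761). Over 5 libraries it ran from -0.23, without control replicate 1, to -0.064, without control replicate 3. Smc1a was the only member with a negative log2 fold change beside Rec8 when all 6 libraries were used without correction.

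Smc3 (ENSMUSG00000024974, chromosome 19:53600398-53645833, plus strand), the SMC subunit shared by mitotic and meiotic rings, was measured at 230, 246 and 339 CPM in controls and at 318, 349 and 267 CPM in exposed ovaries. In each group replicate 3 stood apart from the other replicates, on the high side in controls and on the low side in exposed ovaries. The log2 fold change was 0.20 with a standard error of 0.18 (95% interval -0.23 to 0.62, edgeR adjusted p = 0.744), and 0.00030 after the correction. Smc3 had a log2 fold change of 0.51 in replicates 1 and 2 alone (edgeR adjusted p = 0.0109), which was 0.078 with the correction (adjusted p = 0.666). It was 0.087 without control replicate 1, 0.095 without APAP+IBU replicate 2 and 0.39 without control replicate 3 (adjusted p = 0.113).

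Stag3 (ENSMUSG00000036928, chromosome 5:138280240-138312393, plus strand), the STAG protein of meiotic cohesin, had 325, 346 and 414 CPM in controls and 407, 517 and 343 CPM in exposed ovaries. The groups overlapped, with exposed replicate 2 the highest library and exposed replicate 3 close to the lower controls. The means were 362 ± 46.4 and 423 ± 87.7 CPM (SD, n = 3), and the log2 fold change was 0.22 with a standard error of 0.18 (95% interval -0.19 to 0.64, edgeR adjusted p = 0.713, exact two-sided permutation p = 0.5). The correction gave 0.18. The log2 fold change of Stag3 in replicates 1 and 2 alone was 0.48 (edgeR adjusted p = 0.0287), and 0.34 with the correction (adjusted p = 0.11). Without APAP+IBU replicate 2 it was 0.043 (adjusted p = 0.983), and with 1 other library left out it ran from 0.15 to 0.33.

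Stag1 (ENSMUSG00000037286, chromosome 9:100597798-100959375, plus strand) and Stag2 (ENSMUSG00000025862, chromosome X:42149317-42277185, plus strand) encode the STAG proteins of mitotic cohesin. Stag1 gave 138, 141 and 216 CPM in controls and 189, 193 and 172 CPM in exposed ovaries. Stag2 gave 99.4, 114 and 188 CPM in controls and 174, 164 and 143 CPM in exposed ovaries. For both genes control replicate 3 was the highest of the 6 libraries and control replicates 1 and 2 were the lowest. The log2 fold change was 0.16 with a standard error of 0.19 for Stag1 (95% interval -0.27 to 0.59, edgeR adjusted p = 0.778). For Stag2 it was 0.27 with a standard error of 0.23 (95% interval -0.27 to 0.80, edgeR adjusted p = 0.729). The correction turned both signs, to -0.073 for Stag1 and -0.085 for Stag2. In replicates 1 and 2 alone the log2 fold changes were 0.47 for Stag1 (edgeR adjusted p = 0.00988) and 0.69 for Stag2 (adjusted p = 0.00688), and with the correction they were -0.059 and -0.049 (adjusted p = 0.736 and 0.754). Without control replicate 3, Stag2 had a log2 fold change of 0.59 (edgeR adjusted p = 0.0456) and Stag1 one of 0.40 (adjusted p = 0.0604). Without control replicate 1 these values were 0.090 for Stag2 and 0.049 for Stag1, and without control replicate 2 they were 0.16 and 0.059.

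Sgo2a (ENSMUSG00000026039, chromosome 1:57995971-58025899, plus strand), the shugoshin that protects REC8, was measured at 29.1, 33.6 and 56.0 CPM in controls and at 46.7, 43.5 and 46.9 CPM in exposed ovaries. The exposed libraries were close together between control replicate 2 and control replicate 3. The log2 fold change was 0.21 with a standard error of 0.24 (95% interval -0.34 to 0.75, edgeR adjusted p = 0.774), and -0.015 after the correction. Sgo2a had a log2 fold change of 0.55 in replicates 1 and 2 alone (edgeR adjusted p = 0.0172), which was 0.0094 with the correction (adjusted p = 0.963). The value of Sgo2a was 0.54 without control replicate 3 (edgeR adjusted p = 0.0469), 0.027 without control replicate 1 and 0.10 without control replicate 2. Exons of Kctd18, on the other strand, cover 2455 bases of Sgo2a exons, and Kctd18 itself ranged from 29.7 to 33.0 CPM with a log2 fold change of 0.032. The strand setting of the counting is not given in the sources used here, so reads from that stretch cannot be assigned to either gene with certainty.

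**Figure D2:**
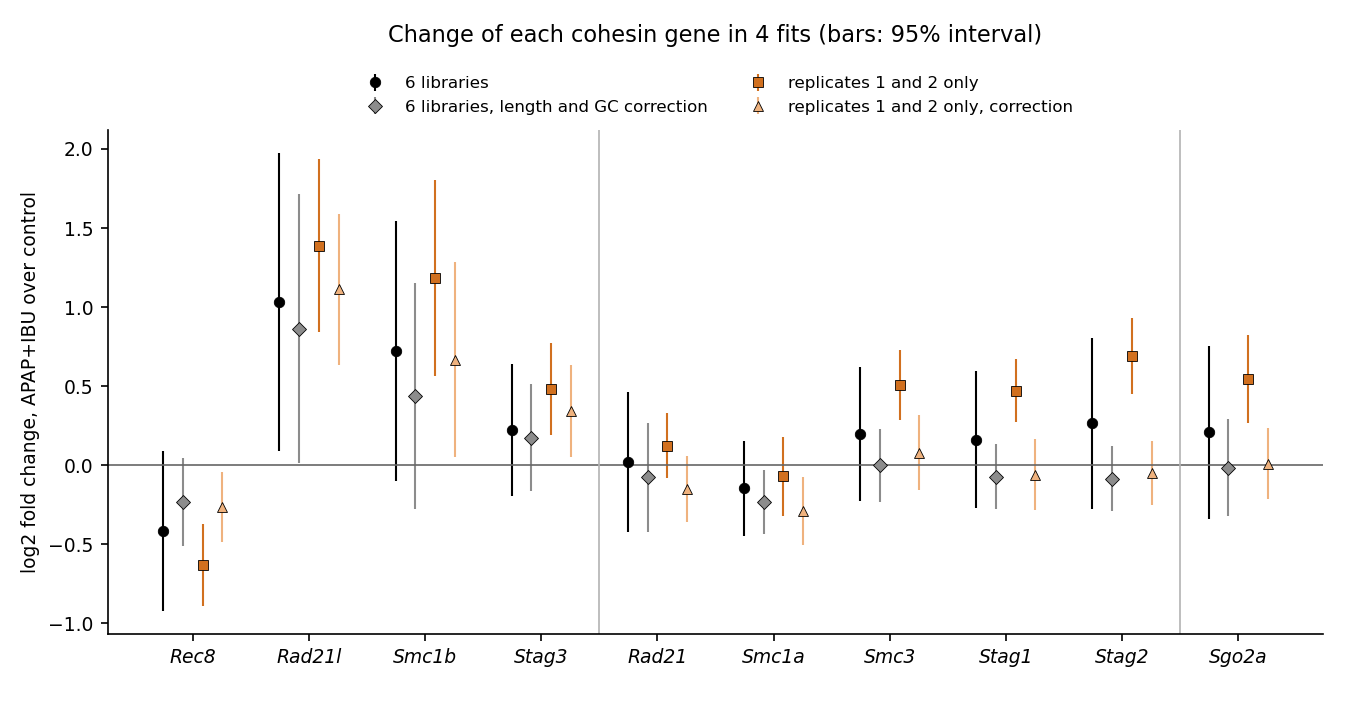
Log2 fold change of each cohesin gene, APAP+IBU over control, in 4 edgeR fits, with bars for the 95% interval and a line at 0 for no difference. Length and GC correction moved Stag1, Stag2, Smc3 and Sgo2a to values near 0 with all 6 libraries and with replicates 1 and 2. Rad21l, corrected by the length and GC content of its coding stretch alone, stayed at 0.86 and 1.11.

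Ratios within a library do not depend on how libraries are scaled to each other. The meiotic and mitotic members of each role were therefore also compared as ratios of CPM per kb. The ratios given here are without the length and GC correction, and can carry that trend where the partners differ. Rec8, for example, has 2184 bases and a GC content of 56.7%, and Rad21 has 3956 bases and 44.3%. The 6 ratios were tested by exact two-sided permutation, and none of them separated the groups. Adjusted over the 6 ratios, every p was 0.6 or above.

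Among the kleisins, the ratio of Rec8 to Rad21 was 1.88, 1.55 and 0.662 in controls and 0.980, 1.06 and 0.816 in exposed ovaries. Control replicates 1 and 2 held more Rec8 than Rad21 per kb by the widest margin, and control replicate 3 held the least. The difference of log2 ratios was -0.40 with a standard error of 0.47 (exact permutation p = 0.5, adjusted p = 0.6), and it was -0.099 without control replicate 1, -0.24 without control replicate 2 and -0.85 without control replicate 3. The ratio of Rad21l to Rad21 was 0.210, 0.322 and 0.170 in controls and 0.518, 0.768 and 0.164 in exposed ovaries, so Rad21l was the rarer kleisin in all 6 libraries. Exposed replicates 1 and 2 were above all controls and exposed replicate 3 was the lowest of all, with a difference of 0.84 and a standard error of 0.72 (exact permutation p = 0.4, adjusted p = 0.6). That difference was 0.37 without APAP+IBU replicate 2 and 1.48 without APAP+IBU replicate 3. The ratio of Rec8 to Rad21l, the kleisins of meiosis, was 8.96, 4.81 and 3.91 in controls and 1.89, 1.38 and 4.99 in exposed ovaries. Exposed replicate 3 lay inside the control range and the other exposed replicates below it, and the difference was -1.23 with a standard error of 0.66 (exact permutation p = 0.3, adjusted p = 0.6).

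Among the SMC subunits, Smc1b over Smc1a was 1.14, 1.03 and 1.23 in controls and 1.67, 3.59 and 1.10 in exposed ovaries. Every library held more Smc1b than Smc1a per kb, and the exposed libraries spread further than the controls. The difference of log2 ratios was 0.73 with a standard error of 0.50 (exact permutation p = 0.3, adjusted p = 0.6), and it was 0.26 without APAP+IBU replicate 2 and 1.12 without APAP+IBU replicate 3. Stag3 over the sum of Stag1 and Stag2 was 1.81, 1.80 and 1.36 in controls and 1.49, 1.91 and 1.44 in exposed ovaries. Here the groups covered nearly the same range, and the difference was -0.036 with a standard error of 0.19 (exact permutation p = 1), or -0.17 to 0.039 with 1 library left out. Sgo2a over Sgo1, the shugoshin of mitosis, was 0.869, 0.800 and 0.929 in controls and 1.03, 0.963 and 0.882 in exposed ovaries, with a difference of 0.14 and a standard error of 0.089 (exact permutation p = 0.2, adjusted p = 0.6), or 0.088 to 0.20 with 1 library left out.

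**Figure D3:**
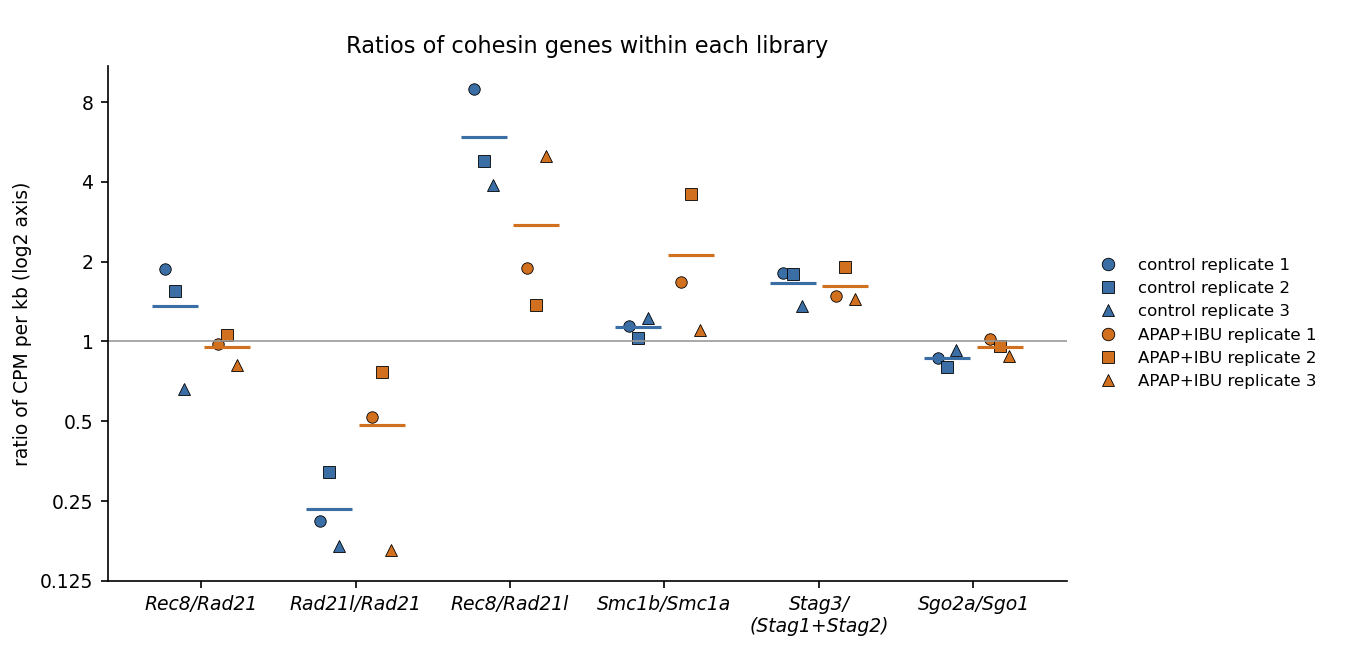
Ratios of CPM per kb between cohesin genes within each library on a log2 axis, with controls in blue, APAP+IBU in orange, one symbol for each replicate number, a bar at the mean of the 3 ratios and a line at 1 for equal levels. APAP+IBU replicate 3 lies with the controls in Rad21l/Rad21 (0.164), Rec8/Rad21l (4.99) and Smc1b/Smc1a (1.10), and the groups overlap in all 6 ratios.

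Across the 6 libraries some members varied alike. Pearson correlations of log2 CPM are given as descriptions over 6 libraries that share the length trend shown above. Rec8 ran opposite to Sgo2a (r = -0.98), Stag2 (r = -0.97) and Stag1 (r = -0.95), and Stag1 ran with Stag2 (r = 0.98). Smc1b ran with Stag3 (r = 0.97) and Rad21l (r = 0.89). Smc3 ran with Stag1 (r = 0.95), Stag2 (r = 0.94) and Stag3 (r = 0.91). The correlation of Rad21 was -0.70 with Rec8, -0.38 with Rad21l, -0.13 with Smc1b and 0.048 with Stag3. With the mean of the germ cell markers the correlation was 0.56 for Smc1b, 0.50 for Stag3, 0.22 for Rad21l and -0.32 for Rec8, so the meiotic subunits did not share one sign. The markers themselves did not vary alike, so their mean need not follow germ cell content. Dazl was at 368, 380 and 553 CPM in controls and 587, 592 and 476 CPM in exposed ovaries. Dnd1 was at 35.7, 17.5 and 15.5 CPM against 11.6, 13.4 and 29.3 CPM.

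Of the 12453 tested genes with a mean of at least 5 CPM, the 5 most like Rec8 over the 6 libraries were Pdcd5, Ogfod3, Rwdd1, Psmc3 and Hoxd9, with r from 0.995 to 0.997. Psmc3 encodes a proteasome subunit and Hoxd9 a homeobox factor. Their annotated transcripts run from 0.832 to 2.136 kb, as short as that of Rec8 or shorter. The 5 most like Rad21l were Terb1, Prdm9, Cdkl2, Xlr4b and Garnl3, with r from 0.994 to 0.997 and transcripts from 1.744 to 4.066 kb. Terb1 encodes a protein that ties meiotic telomeres to the nuclear envelope, and Prdm9 the methyltransferase that places recombination sites. Prdm9 ranged from 30.9 to 127 CPM and Terb1 from 15.1 to 53.7 CPM over the 6 libraries.

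**Figure D4:**
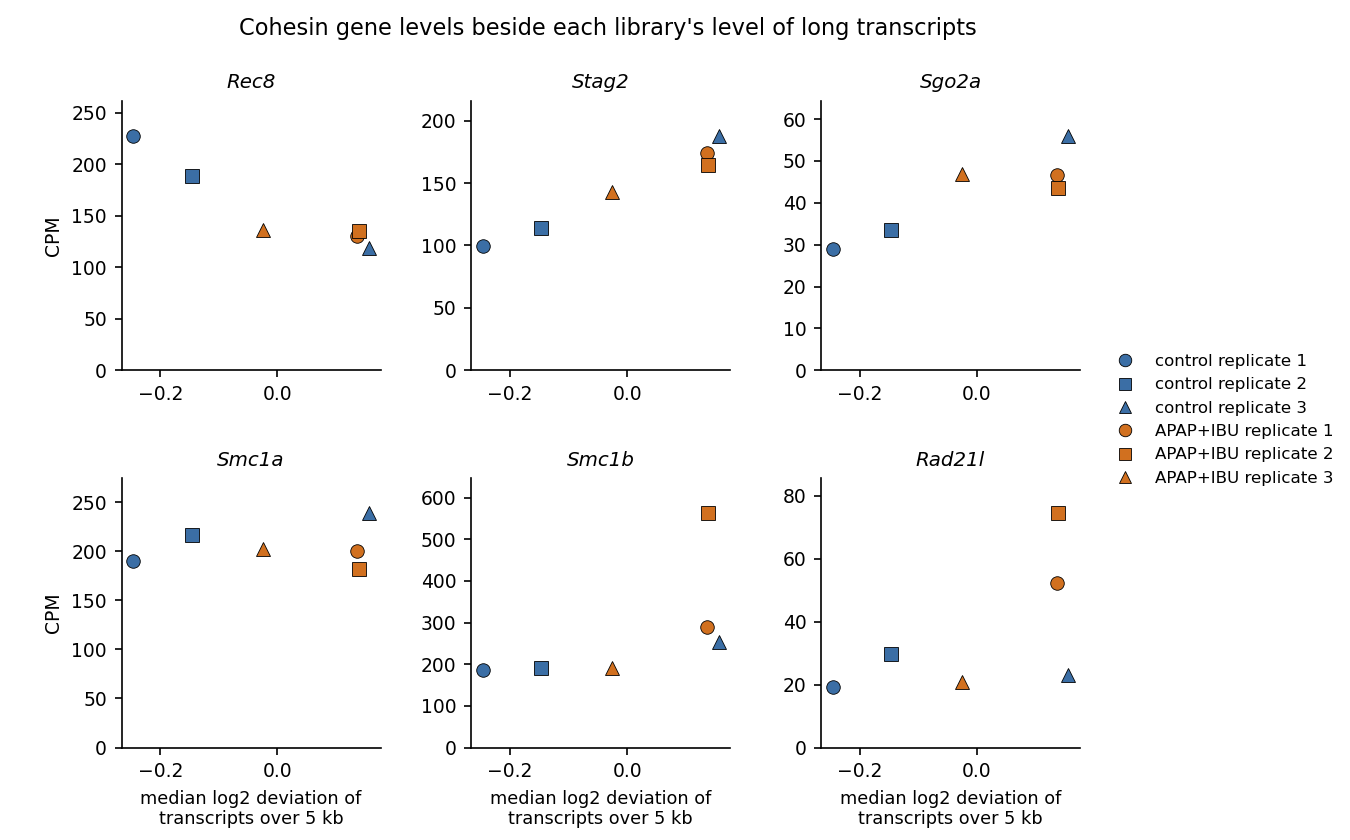
CPM of 6 cohesin genes in each library (vertical axis, from 0) against the median log2 deviation of the 3648 tested genes with transcripts over 5 kb in that library (horizontal axis), with controls in blue, APAP+IBU in orange and one symbol for each replicate number. Rec8 is highest in control replicates 1 and 2, where long transcripts are lowest (-0.25 and -0.15), and Stag2 and Sgo2a are lowest there. Rad21l is high in APAP+IBU replicates 1 and 2 but not in control replicate 3, which has a similar value (0.16), and Smc1b stands apart only in APAP+IBU replicate 2.

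The plot of levels against long transcripts shows control replicate 3 and APAP+IBU replicates 1 and 2 at nearly the same place on the horizontal axis. At that place Rec8 was 118 CPM in the control and 130 and 135 CPM in the exposed libraries, and Stag2 was 188 CPM against 174 and 164 CPM. Rad21l was 23.0 CPM in the control against 52.2 and 74.4 CPM, and Smc1b was 253 CPM against 289 and 563 CPM. This sets 1 control library beside 2 exposed ones, without a test. Liver markers were higher in that control library than in the other controls. With the liver list as a covariate over all 6 libraries, the log2 fold change was -0.38 for Rec8, 0.30 for Stag2, 0.90 for Rad21l and 0.68 for Smc1b, and edgeR called 0 genes. The part of liver RNA in the values of that 1 control library was not tested. Spermatid RNA also moved with the groups, being higher in all 3 controls, and the part of testis RNA in the controls' meiotic transcripts was not tested apart from the exposure, since the list separates the groups.

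The 39 other genes of the cohesin cycle and of the related SMC complexes were read from the same fit. Of these, 37 were tested, none was called by edgeR, and the median log2 fold change was 0.11 beside -0.0047 over all tested genes. At an unadjusted p under 0.05, 2 of the 37 were higher, Mau2 and Esco2, and 1 was lower, Pttg1, near the shares of all tested genes (3% and 3.21%). After the correction the median was -0.077, with 3 higher and 4 lower at that unadjusted threshold, where 4.03% and 5.55% of all tested genes lay. In replicates 1 and 2 alone 17 of 38 were called higher and 9 lower, where 14.2% and 12.9% of all tested genes were called. With the correction these counts were 4 and 6 of 38, where 5.24% and 7.5% of all tested genes were called.

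Mau2 and Nipbl form the loader that places cohesin rings on DNA. Of the 37 tested genes of the list, 1 had all exposed libraries above the controls and 2 had all below, near the shares of all tested genes (4.78% and 5.92%). The one above was Mau2, at 199, 200 and 159 CPM against 127, 145 and 152 CPM (log2 fold change 0.40, unadjusted p = 0.0217, edgeR adjusted p = 0.692). Nipbl was at 107, 129 and 210 CPM in controls and 246, 266 and 173 CPM in exposed ovaries (log2 fold change 0.62, adjusted p = 0.692). In replicates 1 and 2 with the correction both genes were called, with log2 fold changes of 0.48 for Mau2 and 0.49 for Nipbl (edgeR adjusted p = 0.018 and 0.0191).

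The acetyltransferases ESCO1 and ESCO2 lock the ring by acetylating SMC3. Esco2 had a log2 fold change of 0.60 and Esco1 one of 0.38 (edgeR adjusted p = 0.692 for each), which were 0.18 and 0.070 after the correction. Pttg1, securin, the inhibitor of separase, was at 61.9, 56.9 and 55.3 CPM in controls and at 34.7, 40.5 and 51.6 CPM in exposed ovaries. All 3 exposed values of Pttg1 lay below the controls, with a log2 fold change of -0.46 (unadjusted p = 0.0236, edgeR adjusted p = 0.692), which was -0.43 after the correction. The other listed gene with exposed libraries all below the controls was Hdac8, the SMC3 deacetylase, chosen here after its values were seen, with a log2 fold change of -0.23 (adjusted p = 0.698). Incenp, of the chromosomal passenger complex, had a log2 fold change of -0.25 (adjusted p = 0.699).

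In the condensin complexes, which compact chromosomes, Smc4 had a log2 fold change of 0.35 and Ncapg2 one of 0.46 (edgeR adjusted p = 0.692 for each). In replicates 1 and 2 with the correction Smc4 was at 0.11 (adjusted p = 0.482) and Ncapg2 at 0.58 (adjusted p = 0.0107). In the SMC5/6 complex, which acts in DNA repair, Nsmce4a had a log2 fold change of -0.31 and Nsmce1 one of -0.38 (edgeR adjusted p = 0.692 for each). After the correction over all 6 libraries Nsmce4a was at -0.53 and Nsmce1 at -0.15. Replicates 1 and 2 without the correction gave -0.47 for Nsmce4a and -0.65 for Nsmce1. With the correction in replicates 1 and 2, Nsmce4a was at -0.90 (edgeR adjusted p = 0.00931) and Nsmce1 at -0.26 (adjusted p = 0.12).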

How the data were processed

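RNA of 13.5 dpc ovaries was sequenced as stranded polyadenylated libraries. Per the submitters' processing notes, bcl2fastq 2.17.1.14, TopHat2 2.0.14, Bowtie2 2.1.0 and HTSeq 0.6.1 were used with mm10, and the authors deposited raw read counts per Ensembl gene without normalisation. The strand setting of the counting is not given in the sources used here. Only IBU stands in the titles given to the exposed libraries, whereas the exposure field lists both drugs, and they were handled as APAP+IBU.

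From the deposited counts edgeR 4.0.16 in R 4.3.3 was run with TMM normalisation, its expression filter (minimum count 10, 20167 of 48709 genes kept) and the quasi-likelihood test, with no covariate, and p-values were adjusted over all tested genes by the Benjamini-Hochberg method at 0.05. Alternatives used DESeq2 1.42.0, other scalings and filters, the replicate block, fewer libraries, germ cell, liver and spermatid lists, and a loess correction (span 0.3) for transcript length and GC content. Log2 CPM used a prior count of 1. Ratios were tested by exact permutation of the 6 libraries, which cannot go below p = 0.1. Names, positions and the longest transcript of each gene came from GENCODE M21 on GRCm38, the assembly of mm10, a later annotation than the authors' one. Scripts were tested on simulated counts. The labels do not say whether same-numbered libraries came from the same experiment. Deviations of same-numbered libraries had correlations of -0.069, -0.015 and -0.044 across genes. These also carry the length trend of each library, so they cannot settle whether the libraries were paired. The main fit did not take the numbers as pairs, and the fit with the replicate block is given below. Within each group all 3 pairs of libraries differed by far more than sampling noise (chi-square per degree of freedom 19.1 to 159), and each was counted as 1 sample. Total counts ran from 37811968 to 48954631 per library.

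All 10 genes are named, with the 2 genes of smallest unadjusted p from each group of the cohesin list and the 5 genes most like Rec8 and Rad21l. The genes and lists were chosen with earlier results of these data known.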

Additional observations from a re-analysis of the deposited data

How the results depend on the processing

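The number of called genes depended strongly on the libraries and the tool. Over all tested genes it was 0 with edgeR on 6 libraries (1254 genes at an unadjusted p under 0.05), 235 with DESeq2, 186 with its beta prior, 120 with all genes of at least 1 count, 5607 with replicates 1 and 2 only and 2628 with these and the length and GC correction. Leaving out 1 library at a time gave 0 to 1064 calls, the highest without control replicate 3. Among the 10 cohesin genes the count was 0 with 6 libraries, 8 with replicates 1 and 2, 1 with the correction added, and 0 to 3 when 1 library was left out. For the listed cohesin and SMC genes it was 0, then 26 and 10, and 0 to 4 when 1 library was left out. With the replicate block 2 genes were called in all, and 28 with the block and the correction, with 0 cohesin genes called in both. The block gave log2 fold changes of -0.36 for Rec8 and 0.88 for Rad21l. With the spermatid list as a covariate, which separates the groups almost as the exposure does, the sign turned for Rec8 (0.53), Rad21l (-0.22), Smc1b (-0.83), Stag3 (-0.52), Rad21 (-0.46), Smc3 (-0.51), Stag1 (-0.47), Stag2 (-0.58) and Sgo2a (-0.68), with 0 genes called. Rad21, which lies near 0, also turned with upper quartile scaling (-0.012), the correction (-0.077), block and correction (-0.087), replicates 1 and 2 with the correction (-0.15) and the germ cell offset (-0.062), and ran from -0.13 to 0.23 when 1 library was left out. The correction turned Stag1 (-0.073, with the block -0.072, in replicates 1 and 2 -0.059), Stag2 (-0.085, -0.082 and -0.049) and Sgo2a (-0.015, with the block -0.010), and Smc3 turned with both together (-0.0033). The difference of Stag3/(Stag1+Stag2) was 0.23 after the correction, and that of Sgo2a/Sgo1 was 0.25 in replicates 1 and 2. Apart from the correction, whose construction removes the length and GC trend, the cause of each shift was not tested. The lowest count of any of the 10 genes was 735 (Rad21l, control replicate 1). The length of joined exons, tried after the data were seen, reordered the levels per kb as given above.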
